A study of Mus musculus with 6 samples.

Results

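The clustered protocadherins are cell-surface proteins of the cadherin superfamily, encoded in the mouse by the alpha, beta and gamma gene clusters that lie next to each other on chromosome 18. Members were the genes in the expression tables whose symbol begins with Pcdha, Pcdhb or Pcdhg followed by a member number or a lettered subfamily and number. This gave 21 of the 14162 genes in the tables, namely 19 beta genes, 1 alpha identifier and 1 gamma identifier. The members were chosen by name, not by any measured value, but with earlier results of these data known. The tables held RNA-seq values of 6 mouse lung libraries at stage E12.5 of mouse development. The lungs of 3 libraries, here Dnmt1KO, were ShhCre-Dnmt1KO, a deletion of Dnmt1 by the Cre recombinase of the Shh locus, and the other 3, here WT, were wild-type littermates. Shh is made by the endoderm that lines the airways, so the deletion concerns the epithelium, while lung is the only tissue that the labels name. The labels give no Cre allele for the WT group, give no age or treatment that differs between the groups, and do not tell if the libraries of a group are separate embryos. The p-values therefore cover only the spread between these libraries, which may be technical in part, and in the WT group in whole. The Dnmt1KO libraries are not all of the same embryo, since replicate 1 differed in sex from the others by its Y-linked reads, given below.

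The beta genes are as a rule single-exon genes whose proteins have a run of extracellular cadherin domains, 1 membrane span and a short cytoplasmic end. In the alpha and gamma clusters each member has its own large first exon, with its own promoter, which is spliced to small constant exons shared by the whole cluster. Neurons switch on a few of these promoters each, and the resulting mix of proteins lets a neuron tell its own branches from those of other cells. Promoter choice in neurons is known to depend on DNA methylation, on the insulator protein CTCF and on cohesin. The comparison of Dnmt1KO with WT therefore asks whether these promoters gave more or less RNA in lungs labelled ShhCre-Dnmt1KO. Dnmt1 encodes the maintenance DNA methyltransferase, and its loss in the epithelium alone was not measured.

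No member passed the test between Dnmt1KO and WT lungs by limma, a linear model fitted to all 14162 genes with p-values adjusted over all of them. Of the 21 members, 0 were called higher and 0 lower at an adjusted p under 0.05, against 0.29% of all genes called in either direction, 0.282% higher and 0.00706% lower. A count of 0 in 21 genes is what a share of 0.29% gives, so it says nothing particular about these genes. At an unadjusted p under 0.05 the count was also 0 of 21, against 4.52% of all genes. With limma's voom method on the recovered reads it was again 0, both adjusted and unadjusted. Without limma's trend and robust estimation 5 of 21 members (Pcdhb3, Pcdhb4, Pcdhb8, Pcdhb10 and Pcdhb15) were under 0.05 unadjusted, against 4.99% of all genes. The smallest limma adjusted p of a member was then 0.761. In Pcdhb3, Pcdhb8 and Pcdhb15 the SD around the group means was under the counting error of the reads (ratios of 0.84, 0.58 and 0.17). In Pcdhb4 and Pcdhb10 it was above (1.14 and 1.04). With trend and robust estimation kept, as below unless stated, the smallest limma adjusted p of a member was 1.0. The median log2 difference, Dnmt1KO minus WT, was 0.0096 over the 21 members and -5.9e-05 over all genes. A bulk value cannot tell fewer cells of a type from less RNA per cell.

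**Figure D1:**
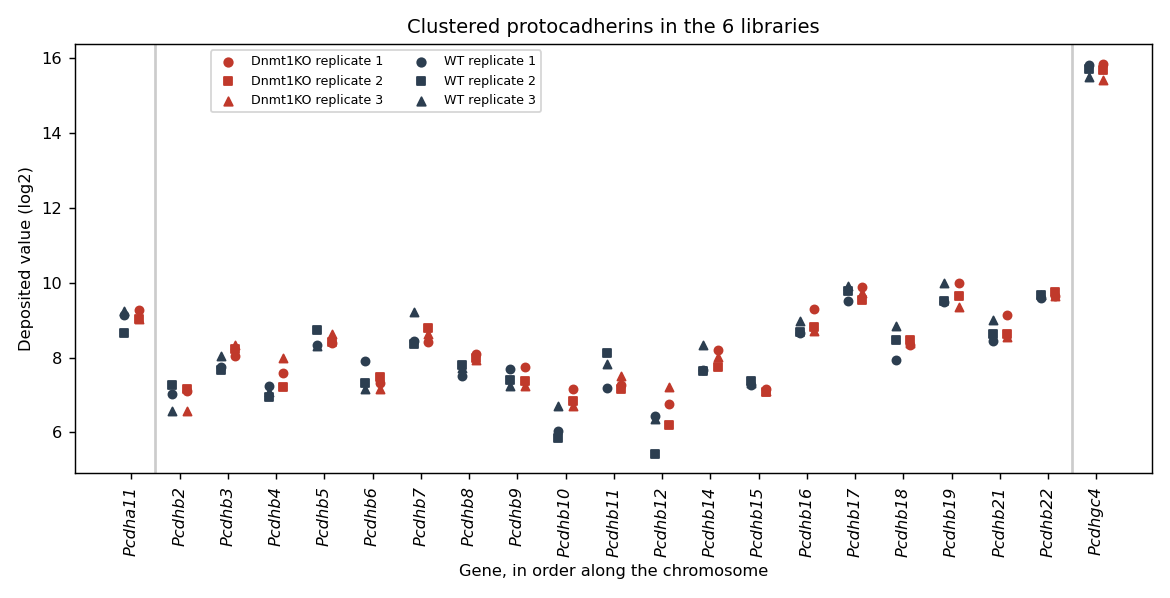
Deposited log2 value of each member (vertical axis) in each of the 6 libraries, with genes in order along the chromosome and grey lines between the alpha, beta and gamma clusters. WT points are dark and Dnmt1KO points red, with 1 symbol per replicate. The beta genes lie between 5.43 and 9.99 and the gamma identifier above 15.4, and the 2 colours overlap in 17 of the 21 genes.

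How the members were counted differs between the clusters. The GENCODE M21 annotation lists 58 genes with such names, 14 alpha, 22 beta and 22 gamma. Of these, 37 were not analysed here because their identifiers had no row in the tables, namely 13 alpha genes, 21 gamma genes and the beta genes Pcdhb1, Pcdhb13 and Pcdhb20. The highest identifier number in the tables was 93674, and 34 of the 37 identifiers have a higher number. The alpha row has the identifier ENSMUSG00000007440, named Pcdha11 in GENCODE M21, and the gamma row has ENSMUSG00000023036, named Pcdhgc4. In that annotation 53.4% of the exon bases of the alpha gene and 37.9% of those of the gamma gene also lie in exons of other genes of their own cluster. Each of the other 13 alpha and 21 gamma genes shares some of these bases. Which exons the authors' mm9 gene models gave these identifiers is not given in the sources used here. Each of the 2 rows may therefore hold RNA of several promoters, and they are called the alpha and the gamma identifier below.

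The beta genes carry their own sequence and can be read one by one, with some overlap. Between 1.5% (Pcdhb14) and 12% (Pcdhb12) of the 50-base stretches of a measured beta gene's transcripts also occur in another beta gene. At 100 bases the highest share was 7.73%, for Pcdhb21 with its neighbour Pcdhb22. Other pairs that share the most 50-base stretches are Pcdhb11 with Pcdhb12 and Pcdhb7 with Pcdhb9. How reads in such stretches were assigned is not given, so the split between these pairs is uncertain.

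The libraries held 18192629 to 25597662 reads recovered from the deposited values. Dnmt1KO replicate 1 had 3 reads over 4 Y-linked genes and the other libraries 4155 to 5207, which leaves the groups unlike in sex. The Dnmt1KO libraries held 8723, 8565 and 8388 reads of Dnmt1 and the WT libraries 13466, 10786 and 12602. On the log2 scale every Dnmt1KO library was below every WT library, with a difference of -0.31 ± 0.09 (SE, limma adjusted p = 0.507) that did not pass. The lung lineage factor Nkx2-1, which marks the labelled tissue, had 2252 to 4215 reads in every library.

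The beta cluster was expressed at a low level in both groups. A beta gene had between 8 and 230 reads in a library, and all 19 were in the lowest 25% of the 14162 genes by mean value. Summed over the 19 genes, the level was 68.5, 61.0 and 61.0 CPM (reads per 1000000 recovered reads) in Dnmt1KO replicates 1, 2 and 3 and 54.8, 58.4 and 68.8 in WT replicates 1, 2 and 3. The groups overlapped, with the highest and the lowest sum both in WT. The mean sum was 63.5 ± 4.38 for Dnmt1KO against 60.6 ± 7.27 for WT (SD, 3 libraries each), a ratio of 1.05. The 5 genes with the most reads, Pcdhb17, Pcdhb19, Pcdhb22, Pcdhb16 and Pcdhb21, held 49.6% to 56.4% of the beta reads in each library.

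Per exon length the beta genes spread over an 8.15-fold range in WT. Levels are given as CPM per kilobase of exon in GENCODE M21, and a gene whose mm9 model had another length would shift. Pcdhb17 was highest, with 1.52, 1.81 and 2.00 in the WT libraries and 1.97, 1.55 and 1.77 in the Dnmt1KO libraries. After it in WT came Pcdhb22 (1.17 ± 0.04), Pcdhb7 (1.17 ± 0.43), Pcdhb19 (1.11 ± 0.24) and Pcdhb5 (0.972 ± 0.157; SD, n = 3 each). The lowest were Pcdhb14 (0.268 ± 0.081), Pcdhb10 (0.252 ± 0.085) and Pcdhb12 (0.218 ± 0.078). In the order of WT levels, 17 of the 18 neighbouring pairs had overlapping WT values. The exception was Pcdhb17, whose WT values all lay above those of the next gene, Pcdhb22. Pcdhb7 reached 1.66 in WT replicate 3, above the 1.52 of Pcdhb17 in WT replicate 1, so the ranges of these genes overlapped. The order thus does not rank neighbours.

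**Figure D2:**
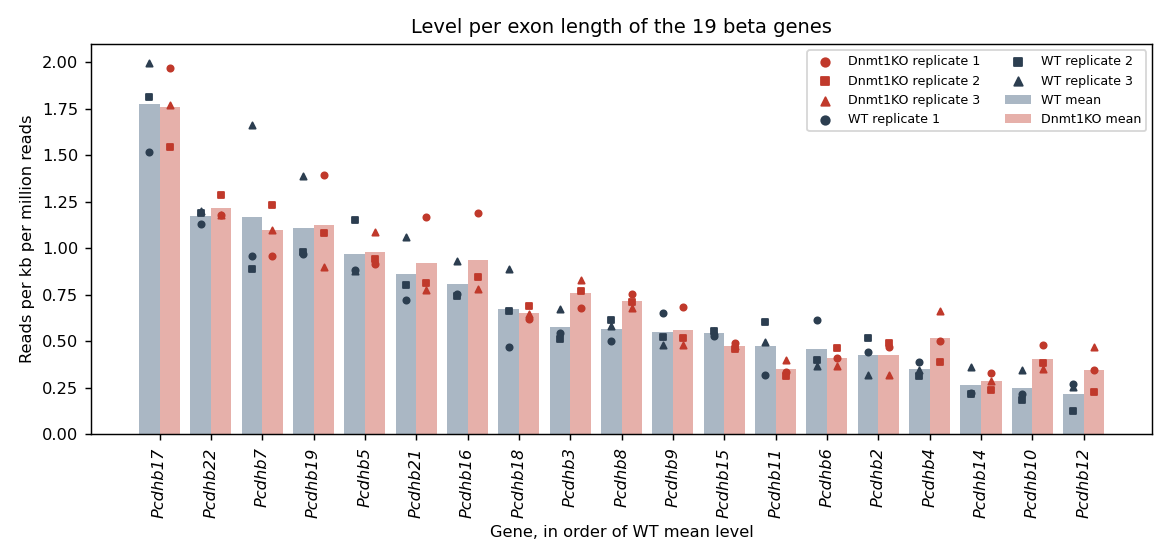
CPM per kilobase of exon (vertical axis, labelled as reads per kb) of the 19 beta genes, in order of WT mean. Bars are means of 3 WT (grey) and 3 Dnmt1KO (pink) libraries and points are single libraries. Pcdhb17 is highest at 1.78 in WT and 1.76 in Dnmt1KO, and Pcdhb12 lowest in WT at 0.218.

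The order of the beta genes was much alike in both groups, with a Spearman rho of 0.95 between the WT and Dnmt1KO mean levels over the 19 genes. The points share the gene lengths and the tissue, so this is a description only. Position along the cluster and level had a rho of 0.42 in WT and 0.32 in Dnmt1KO over the same 19 genes, a weak relation in genes with few reads. Position and log2 difference had a rho of -0.11.

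Two-sided intervals show what sizes of change the data allow for each gene in the RNA of the lung libraries. They do not bound a change in the epithelium alone, which could be larger, since RNA of other cells is measured with it. All 21 limma 95% intervals, which are not adjusted for the number of genes, held 0. For 17 of 21 members the interval lay within a 2-fold change in either direction, against 87.4% of all genes. The upper bound was under a 2-fold rise for 18 members (89.7% of all genes) and under a 1.5-fold rise for 11 (78.2% of all genes). The exceptions to the first bound were Pcdhb4, Pcdhb10 and Pcdhb12 on the upper side, and Pcdhb11 was the exception on the lower side. Pcdhb10 and Pcdhb12 were the beta genes with the lowest mean values. The tightest intervals belonged to the gamma identifier, from 0.801-fold to 1.21-fold, and to Pcdhb22, from 0.823-fold to 1.28-fold.

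**Figure D3:**
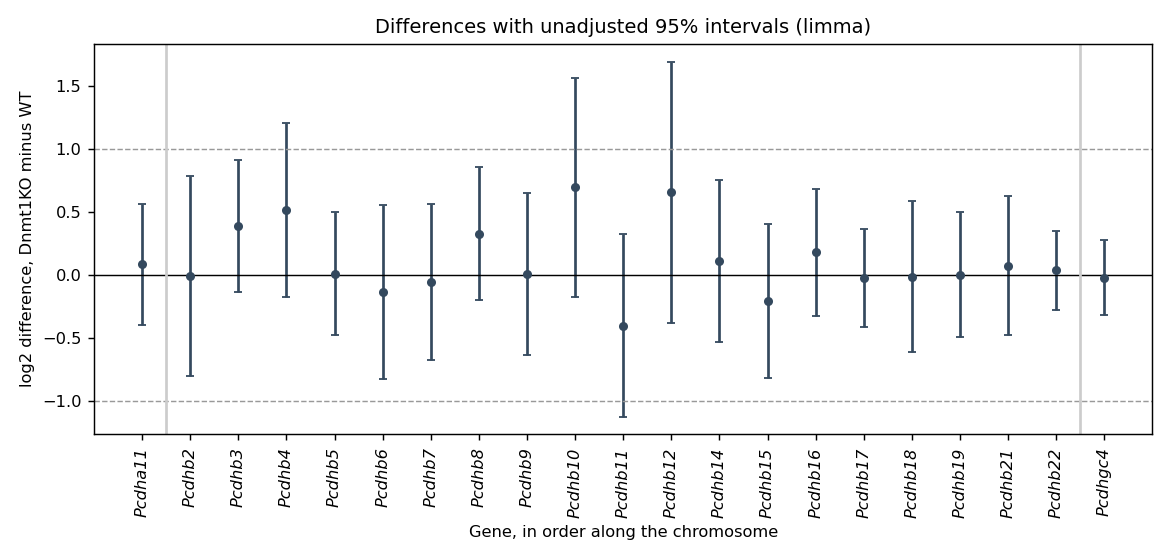
Log2 difference of each member, Dnmt1KO minus WT (vertical axis), with the limma 95% interval as an error bar, for 3 libraries against 3. Genes are in order along the chromosome, with grey lines between clusters and dashed lines at a 2-fold change. All 21 intervals cross 0, and the widest, for Pcdhb12, runs from -0.38 to 1.69.

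The gamma identifier had by far the most reads of the members. The Dnmt1KO libraries held 10569, 10396 and 8963 of its reads, and the WT libraries 14320, 10593 and 10475. On the deposited scale these were 15.85, 15.68 and 15.40 against 15.81, 15.71 and 15.49, so the highest and the lowest value were both in Dnmt1KO and the groups overlapped. The mean was 15.65 ± 0.23 for Dnmt1KO against 15.67 ± 0.16 for WT (SD, 3 libraries each), a log2 difference of -0.02 ± 0.13 (SE). The SD around the group means was 0.20, while counting error alone gives 0.014 at this depth, so the libraries differed from each other by far more than counting error. Pcdhgc4, whose name the identifier carries, is a gamma member known to be needed for the survival of some neurons.

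Far fewer reads fell on the alpha identifier, namely 109, 102 and 107 for Dnmt1KO against 141, 79 and 138 for WT. The values were 9.26, 9.02 and 9.02 against 9.14, 8.65 and 9.25 on the log2 scale, and WT replicate 2 was the lowest of the 6. The difference was 0.08 ± 0.21 (SE), and the interval ran from 0.760-fold to 1.48-fold. The alpha proteins differ in their first exon, and the constant exons encode their shared cytoplasmic end.

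Among the beta genes, 12 had a positive and 7 a negative difference, so 13 of 21 members were positive, against 7076 of the 14162 genes. Among the 3541 genes of the lowest 25%, where all beta genes and the alpha identifier lie, 68.7% were positive, with a median of 0.14. Quantile normalization, which gives all libraries the same distribution, turned both, to 6 of 21 members positive and 42.4% of the lowest genes. Median centring gave 13 of 21 and 69.1%, scaling to library totals 15 of 21 and 71.0%, and voom 15 of 21 and 70.1%. The share of positive signs in these genes thus turned with quantile normalization and not with these other scalings.

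The groups did not overlap in 4 of the 21 members, 3 higher and 1 lower in Dnmt1KO, against 8.78% of all genes in either direction, 4.79% higher and 3.99% lower. The 3 higher ones were Pcdhb3, Pcdhb8 and Pcdhb10. Pcdhb3 was covered by 47, 59 and 66 reads for Dnmt1KO against 53, 40 and 59 for WT. These are log2 values of 8.05, 8.24 and 8.33 against 7.74, 7.68 and 8.03, so the lowest Dnmt1KO and the highest WT library were nearly level. The log2 difference was 0.39 ± 0.23 (SE, limma adjusted p = 1.0).

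Pcdhb8 had 48, 50 and 50 reads against 45, 44 and 47, in log2 values 8.08, 8.0 and 7.93 against 7.51, 7.81 and 7.71. All Dnmt1KO libraries were above all WT libraries, with a difference of 0.33 ± 0.23 (SE, limma adjusted p = 1.0). For Pcdhb10 the Dnmt1KO libraries held 25, 22 and 21 reads and the WT libraries 16, 11 and 23. Its values were 7.16, 6.83 and 6.70 against 6.04, 5.86 and 6.69, and WT replicate 3 was nearly level with the lowest Dnmt1KO library. At 0.70 ± 0.38 (SE) this was the member with the highest difference, 1.62-fold with an interval from 0.887-fold to 2.96-fold.

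Pcdhb15 was the member whose Dnmt1KO libraries all lay below WT. Its reads numbered 25, 26 and 28 for Dnmt1KO against 38, 32 and 36 for WT, with log2 values of 7.16, 7.07 and 7.11 against 7.27, 7.36 and 7.33. The SD around the group means was 0.046, under the 0.26 that counting error alone gives for so few reads. The difference was -0.21 ± 0.27 (SE, limma adjusted p = 1.0), where the SE is the moderated one of the fit over all genes.

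The other members with sizeable differences had groups that overlapped. Pcdhb12 had 19, 14 and 30 reads against 21, 8 and 18, with the lowest value in WT replicate 2, and a difference of 0.66 ± 0.45 (SE). Pcdhb4 had 34, 29 and 52 reads against 37, 24 and 30, with Dnmt1KO replicate 3 highest and replicate 2 just under WT replicate 1, and a difference of 0.52 ± 0.30. Pcdhb11 had 27, 28 and 37 reads against 36, 55 and 51, with WT replicate 1 at the Dnmt1KO level and a difference of -0.40 ± 0.32. None of these passed, and the smallest adjusted p of any member was 1.0 by limma.

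The beta genes with the most reads, Pcdhb17, Pcdhb19 and Pcdhb22, had differences between -0.02 and 0.04, and Pcdhb16, next by reads, was at 0.18 ± 0.22 (SE). Pcdhb17 had 167, 145 and 174 reads for Dnmt1KO against 181, 174 and 216 for WT (log2 difference -0.02 ± 0.17 SE). Pcdhb22 had 142, 171 and 164 against 191, 162 and 184 (0.04 ± 0.14), and its 6 log2 values lay between 9.58 and 9.76. Pcdhb19 had 181, 156 and 135 against 177, 144 and 230 (0.00029 ± 0.22), with WT replicate 3 and Dnmt1KO replicate 1 level at the top. Over the 19 genes, total reads and the size of the difference had a Spearman rho of -0.52, in points that share the counting error of low genes.

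Differences between libraries of 1 group were often as large as those between groups. Pcdhb7 had 86, 64 and 135 reads in WT, log2 values of 8.43, 8.35 and 9.22, while its Dnmt1KO values of 8.43, 8.79 and 8.62 fell between them. Pcdhb18 ran from 7.94 to 8.85 in WT and from 8.33 to 8.48 in Dnmt1KO. Pcdhb6 had 59 reads in WT replicate 1 and 28 to 35 in the other 5 libraries. Pcdhb16 and Pcdhb21 were highest in Dnmt1KO replicate 1, at 9.31 and 9.13, and lay between 8.45 and 9.0 in the other libraries. Pcdhb2, Pcdhb5, Pcdhb9 and Pcdhb14 had differences between -0.01 and 0.11.

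This spread can be set beside the counting error of the reads. The SD around the group means was above the counting error in 15 beta genes and below it in 4, with a median ratio of 1.19. The ratio ran from 0.173 for Pcdhb15 to 2.69 for Pcdhb19. The median SD was 0.30 over the beta genes and 0.16 over all genes.

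No library was high in the whole beta cluster. WT replicate 3 had the most beta genes above their WT mean, 14 of 19, and the deviations from the WT mean had a median of 0.17 there. Dnmt1KO replicate 1 had 12 of 19 and a median of 0.23, and WT replicate 1 had 5 of 19 and a median of -0.13. The highest of the 6 values fell in Dnmt1KO replicate 1 and in WT replicate 3 for 5 genes each. The median difference of the beta cluster, 0.0096 with all libraries, was 0.0031 without Dnmt1KO replicate 1 and 0.20 without WT replicate 3.

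**Figure D4:**
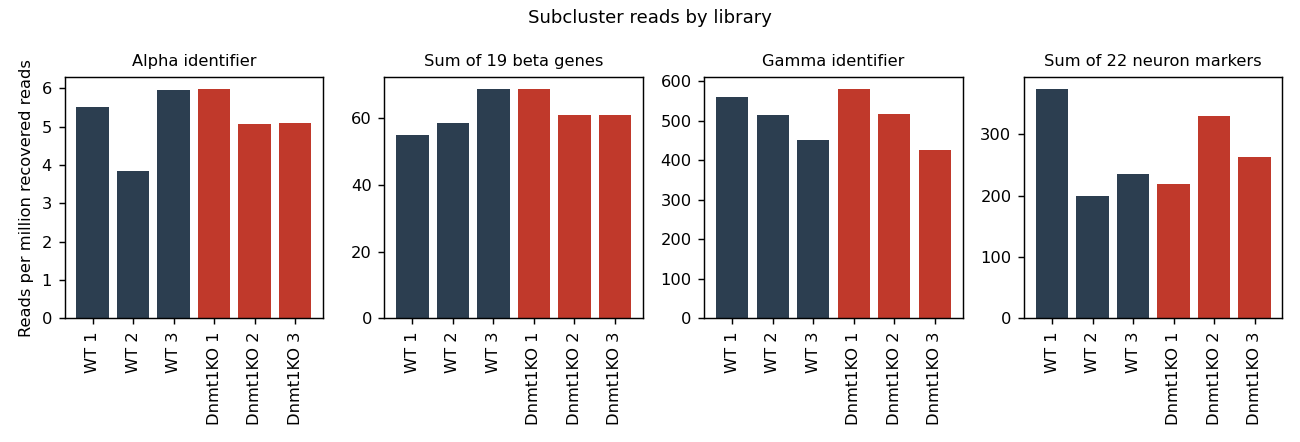
CPM (vertical axes, each from 0) in each library for the alpha identifier, the sum of the 19 beta genes, the gamma identifier and the sum of 22 neuron marker genes. WT bars are dark and Dnmt1KO bars red. The beta sum lies between 54.8 and 68.8, and the neuron markers between 199.7 and 374.1.

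Neurons are the cells best known for these genes, and their markers varied between libraries of both groups. Of 25 neuron markers 22 were measured, 0 were called, 11 were positive and the median difference was 0.0016. Their sum was 218.1, 329.7 and 262.2 CPM in Dnmt1KO replicates 1, 2 and 3 and 374.1, 199.7 and 234.6 in WT replicates 1, 2 and 3. WT replicate 1 was highest in neuron markers and lowest in the beta sum. No measured neuron marker was at 0 in any library, which also held for every other marker list here. Neural crest and glia markers (11 of 12 measured, 0 called) ran from 257.5 to 306.3 in Dnmt1KO and from 234.8 to 377.7 in WT. Their part in the beta values was not tested.

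Of the other 10 marker lists none had a called gene. Lung epithelium markers (21 measured) summed to 1171 to 1567 CPM in Dnmt1KO and 1269 to 1475 in WT. The liver list was the one whose ranges stood apart, at 14.9 to 28.6 in Dnmt1KO and 3.01 to 5.29 in WT over 4 measured genes. Ranges in Dnmt1KO and WT overlapped for the neuroendocrine (7.86 to 17.1 and 3.25 to 18.9), lung mesenchyme (5809 to 6989 and 5624 to 6708), endothelium (589.5 to 776.7 and 447.9 to 755.4), erythroid (2052 to 3594 and 1517 to 2192), cardiac muscle (57.7 to 469.4 and 66.2 to 100.1), smooth muscle (414.7 to 564.2 and 320.9 to 797.2), mesothelium (446.7 to 694.9 and 459.2 to 646.8) and macrophage lists (122.1 to 134.1 and 131.1 to 137.7). Differences were positive for all 13 erythroid, 6 neuroendocrine and 4 liver genes measured and for 6 of 7 cardiac muscle genes. They were positive for 10 of 21 lung epithelium, 8 of 14 lung mesenchyme and 8 of 10 endothelium genes. For smooth muscle this was 2 of 7, for mesothelium 4 of 6 and for macrophages 3 of 7. The part of these lists in the members' values was not tested.

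Of the factors known to act on these clusters, none passed the test over all genes. Of 33 measured regulators, Dnmt1 included, 0 were called, 16 were positive and 17 negative, with a median of -0.00077. Ctcf, which encodes the insulator protein that binds the promoters and their enhancers, had 3812, 4125 and 4127 reads for Dnmt1KO against 5287, 4134 and 4542 for WT, a log2 difference of 0.0023 ± 0.07 (SE). The cohesin gene Rad21 was at -0.02 ± 0.09 and Stag2 at 0.02 ± 0.10. Smchd1, a chromatin protein needed for silencing of the clusters, was at 0.0035 ± 0.08, and Setdb1, a histone H3 lysine methyltransferase known to act at these clusters, at 0.0092 ± 0.08.

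Dnmt3b, the de novo methyltransferase known to methylate these promoters in the early embryo, had 771, 776 and 775 reads for Dnmt1KO against 1031, 719 and 895 for WT (0.03 ± 0.10). Uhrf1, which brings Dnmt1 to newly copied DNA, had 6855, 6649 and 7625 reads against 9842, 7996 and 9779. Every Dnmt1KO value was under the WT ones, and its difference of -0.18 ± 0.08 did not pass (limma adjusted p = 1.0). Dnmt1, Uhrf1 and Ehmt1 were the regulators whose groups did not overlap, all lower in Dnmt1KO, which is 3 of 33 against 3.99% of all genes. Ehmt1 and Ehmt2, which form a histone H3 lysine methyltransferase complex, stood at -0.11 ± 0.08 and -0.12 ± 0.08.

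Protocadherins outside the clusters and the related Fat and Dachsous cadherins gave no call. Of 17 measured genes 0 were called, 7 were positive and 10 negative, with a median of -0.0052. No gene had groups that were apart, against 8.78% of all genes in either direction. Pcdh20 had the smallest p, with 58, 75 and 63 reads for Dnmt1KO against 77, 19 and 40 for WT (0.94 ± 0.40 SE, limma adjusted p = 1.0). Its WT libraries overlapped the Dnmt1KO range, with WT replicate 2 lowest. The mesenchymal Pcdh18 was at -0.0047 ± 0.13 and the endothelial Pcdh12 at -0.11 ± 0.21.

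Genes at or next to the clusters gave 0 called of 25 measured, with a median of -0.03. Taf7, a general transcription factor gene that lies between the beta and gamma clusters, had 520, 616 and 731 reads for Dnmt1KO against 675, 649 and 731 for WT (0.06 ± 0.12 SE). Diaph1, an actin regulator beyond the gamma cluster, was at -0.15 ± 0.11, and Hdac3, a histone deacetylase, at -0.03 ± 0.09. Hbegf, an EGF-family ligand, was the gene of this list whose groups were apart (0.44 ± 0.20, limma adjusted p = 1.0). That is 1 of 25, higher in Dnmt1KO, against 4.79% of all genes.

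The partner list, which holds the kinases, actin regulators and proteases that clustered protocadherins work with, had 0 called of 32 measured, 12 positive and 20 negative, with a median of -0.03. Ptk2b, the kinase PYK2, which clustered protocadherins bind and inhibit, had 126, 136 and 93 reads for Dnmt1KO against 90, 78 and 60 for WT. Every Dnmt1KO log2 value was above the WT ones, with a difference of 0.84 ± 0.25 (SE) that did not pass (limma adjusted p = 0.573). Its relative Ptk2, the focal adhesion kinase, was at -0.06 ± 0.08. Adam10, the protease that cleaves gamma protocadherins at the membrane, was at 0.07 ± 0.09, and Axin1, a Wnt pathway scaffold that a gamma protocadherin binds, at -0.08 ± 0.08. Groups did not overlap in 3 of the 32 (Ptk2b, Marcks and Nlgn1, all higher), against 4.79% of all genes.

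**Figure D5:**
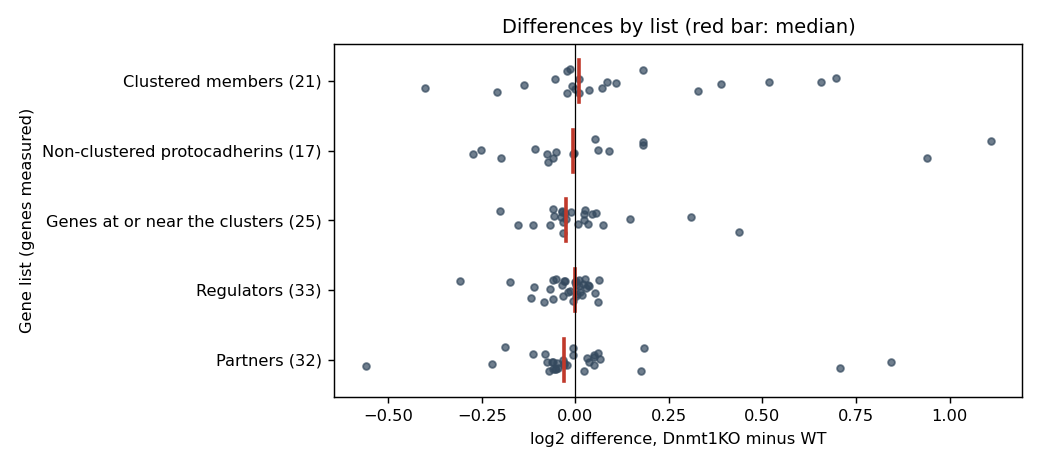
Log2 difference, Dnmt1KO minus WT (horizontal axis), of each measured gene in the 21 clustered members and 4 other lists, with the median as a red bar. Points are genes, spread vertically for legibility only. All medians lie between -0.03 and 0.01, and no point passed limma's test over all genes.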

How the data were processed

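RNA-seq values of 3 Dnmt1KO and 3 WT lung libraries were assigned to groups by their labelled genotype. For each library the authors deposited a table of Ensembl identifiers with a log2 value, headed as a signal per the file headers, from 1 to 18.4. STAR, limma and mm9 are named in the submitters' processing notes, without versions, and the sources used here do not give the read counter, annotation, filter or scaling. In every library 2 to the power of each value was a whole number of reads plus 0.5, times 1 constant (100% of genes within 1e-06 reads); these whole numbers are the reads and depths given, and CPM are reads per 1000000 recovered reads of the library. The lowest gene total was 60 reads. GENCODE M21 (GRCm38) named 13967 of 14162 identifiers and gave gene order, exon lengths and transcripts, but no positions, since its build is not mm9.

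The deposited values of all genes were fitted with limma 3.58.1 (R 4.3.3) with genotype as the only term. The fit used moderation with trend and robust estimation, Benjamini-Hochberg adjustment and a threshold of 0.05. It was also run on simulated data whose changed genes were drawn from all genes, so that run does not speak for genes with few reads. Fold values are 2 to the power of log2 differences. Counting error was taken as the Poisson SD of the reads on the log2 scale, and the number of libraries limits precision beyond it. Members were named by symbol, and of each other list the genes with the smallest p, those that mark its role and Dnmt1. The members and lists were chosen with earlier results of these data known. The 14 alternatives were the replicate block, removal of the lowest 25% of genes, quantile normalization, median centring, scaling to library totals, voom, no trend or robust estimation, library weights and leaving out each library.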

Additional observations from a re-analysis of the deposited data

How the results depend on the processing

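Under each of the 14 alternatives 0 members were called higher and 0 lower, and the smallest adjusted p of a member was 0.732, with library weights. With the lowest 25% of genes removed only the gamma identifier was left to test. Deviations from the group mean had correlations of -0.0027, -0.18 and 0.31 between same-numbered libraries, and from -0.37 to 0.38 between the others. Deviations within a group of 3 libraries are tied to each other, so these values do not decide if replicate numbers pair the libraries. The fit with the replicate block also called 0 members, with a beta median of 0.0096. The beta median was -0.082 with quantile normalization and between 0.0031 and 0.20 with any 1 library removed. The number of libraries and the few reads of the beta genes limit what could be seen. Pcdhb3, Pcdhb4, Pcdhb8, Pcdhb10, Pcdhb11, Pcdhb12 and Pcdhb15 kept their sign wherever they were tested, and the other 14 members, all within 1 SE of 0, turned at least once, and the cause was not tested. With quantile normalization the differences were -0.034 for Pcdha11, -0.15 for Pcdhb5, -0.24 for Pcdhb9, -0.082 for Pcdhb14, -0.078 for Pcdhb19, -0.047 for Pcdhb21 and -0.052 for Pcdhb22. With library weights they were -0.0010 for Pcdha11, 0.22 for Pcdhb2, 0.050 for Pcdhb6, -0.12 for Pcdhb14, -0.10 for Pcdhb19, -0.066 for Pcdhb21 and 0.077 for Pcdhgc4. With library totals Pcdhb2 was at 0.0064 and Pcdhb18 at 0.00023, and with voom they were at 0.0049 and 0.015. With any 1 library removed, the differences lay from -0.099 to 0.20 for Pcdha11, from -0.20 to 0.18 for Pcdhb2, from -0.066 to 0.15 for Pcdhb5, from -0.28 to 0.082 for Pcdhb6, from -0.21 to 0.22 for Pcdhb7, from -0.14 to 0.13 for Pcdhb9, from -0.011 to 0.34 for Pcdhb14, from -0.00017 to 0.30 for Pcdhb16, from -0.14 to 0.067 for Pcdhb17, from -0.25 to 0.20 for Pcdhb18, from -0.16 to 0.17 for Pcdhb19, from -0.11 to 0.22 for Pcdhb21, from -0.0066 to 0.057 for Pcdhb22 and from -0.13 to 0.098 for Pcdhgc4.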
